A study of Mus musculus with 20 samples.

Results

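The chemokine and sphingosine-1-phosphate (S1P) receptors of lymphocyte homing were followed through lymphoma and leukaemia libraries. They comprise the chemokine receptors *Cxcr3*, *Cxcr4*, *Cxcr5*, *Ccr6*, *Ccr7* and *Ccr9*, and the S1P receptors *S1pr1* and *S1pr4*. They are 8 of the 25869 genes in the table. The genes were taken by name, except that *Cxcr3* was chosen by its own values: it had reads in the primary tumours and none in the cell lines of the same mice. That contrast is therefore described below without a test for any of the 8 genes.

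The RNA-seq series holds 20 mouse libraries. The lymphomas carried the *Eµ-Myc* transgene, in which the immunoglobulin heavy chain enhancer drives *Myc* in B lineage cells, together with the dCas9-SAM activator cassette and a guide RNA to the *Bcl-2* promoter (sgBcl-2). They arose in lethally irradiated mice that had been given transduced blood stem and progenitor cells of that genotype, so tumour tissue can hold cells of the host. The cassette sits at *Rosa26* under the CAG promoter, which is active in most cell types. There were 6 lymphoma cell lines, each grown in culture from the tumour of a different mouse: lines 14, 15, 16 and 17 were IgM-positive, and lines 18 and 19 were IgM-negative. Tumour libraries 20 and 21 came from primary tissue, and both were IgM-positive. They belong to the mice of lines 14 and 15, but title and description of each tumour name opposite mice, so no tumour was tied to 1 line unless stated. The column headers of the deposited values carry the mouse numbers of the descriptions. The 2 preB acute lymphoblastic leukaemia (preB-ALL) libraries, P190CreERLSLErg (preB-ALL 1) and P190RagCreErg (preB-ALL 2), are given the genotype BCR-ABL1 (p190T/+) alone and were grown with IL7. Whether they came from separate animals is not stated, so p-values against them measure only the spread between these samples. Their RNA was isolated with another kit and read in another sequencing run, so batch and disease cannot be told apart. The other 10 libraries are mouse embryonic fibroblasts (MEFs): 2 WT, 2 dCas9-SAM, 2 dCas9-SAM with a non-targeting guide (sgNT) and 4 dCas9-SAM with sgBcl-2.

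Values are CPM, the reads of a gene scaled to the same total in every library. Depth was 20053004 to 26678417 reads in lines and tumours, and 12474885 to 14970269 in preB-ALL. All 8 B cell markers were read in each of the 3 classes, with a summed level of 1071 to 2018 CPM in the 6 lines, 5408 to 5880 CPM in the tumours and 3708 to 6835 CPM in preB-ALL. *Ms4a1*, which encodes the mature B cell marker CD20, reached no more than 7.46 CPM in any line, against 529 and 799 CPM in the tumours. T cell markers (10 genes) summed to 3.09 and 3.11 CPM in the tumours and NK cell markers (6 genes) to 5.08 and 12.7 CPM. Macrophage markers (8 genes) summed to 27.9 and 32.8 CPM in the tumours against 1.13 to 12.6 CPM in the lines, where *Adgre1*, *C1qa*, *C1qb* and *C1qc* were at 0. Fibroblast markers (8 genes) summed to 2227 to 5278 CPM in preB-ALL, with *Dcn* at 0 and *Lum* at most 0.0668 CPM. Their sum was at most 9.48 CPM in lines and tumours. In bulk samples, fewer cells of a type and less RNA per cell cannot be told apart.

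Chemokine receptors and S1P receptors are G protein-coupled receptors that steer lymphocytes along gradients of their ligands. CXCR4 holds B cell precursors in the bone marrow near stromal CXCL12, CXCR5 and CCR7 position B cells in follicles and at the border of the T cell zone, and S1P receptors guide exit from tissue into blood and lymph. CXCR3, found on activated and memory lymphocytes, and CCR6 draw cells to inflamed or mucosal sites, while CCR9 directs cells to the small intestine.

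Promoter sequence from RefSeq (GRCm38.p6) was at hand for 5 of the 8 genes. The bases upstream of the start are shown for *Cxcr4*, read in every lymphoma and leukaemia library, and for *Cxcr3* and *Ccr6*, which were read in both tumours and had 0 reads in lines 14 and 15. Each is written 5′ to 3′ on the strand of the gene, with CpG dinucleotides in capitals. The *Cxcr3* stretch is shorter because bases that GENCODE annotates as exon were left out.
Cxcr4 (chr1:128592300-128592549, minus strand): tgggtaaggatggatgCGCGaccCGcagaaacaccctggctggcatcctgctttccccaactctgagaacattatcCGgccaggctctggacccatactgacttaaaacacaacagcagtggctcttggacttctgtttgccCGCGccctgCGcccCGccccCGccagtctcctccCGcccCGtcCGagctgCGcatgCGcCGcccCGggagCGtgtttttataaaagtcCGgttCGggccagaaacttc
Cxcr3 (chrX:101734270-101734397, minus strand): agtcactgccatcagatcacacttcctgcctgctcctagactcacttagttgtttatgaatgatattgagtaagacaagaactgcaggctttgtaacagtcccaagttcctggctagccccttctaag
Ccr6 (chr17:8235793-8236042, plus strand, the first of 2 starts): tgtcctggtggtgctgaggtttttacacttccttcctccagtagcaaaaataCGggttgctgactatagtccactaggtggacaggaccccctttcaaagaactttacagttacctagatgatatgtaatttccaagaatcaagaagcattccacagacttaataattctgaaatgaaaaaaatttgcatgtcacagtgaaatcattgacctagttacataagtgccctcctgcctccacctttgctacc
Over the full 250 upstream bases, *Cxcr4* held 19 CpG, a number that 19.7% of the 32851 promoter windows of the same length reached. *Cxcr3* held 3, *Ccr6* held 1 at the first start and 7 at the second, *Ccr9* held 3 and *S1pr4* held 0, where the median of all windows was 6. The letters TCACACC (a T-box core), CACGTG (the E-box that MYC binds) and CCACACCC (a KLF core) were searched on both strands and were not found in any of these 6 windows. They occur in 3.33%, 6.02% and 3.20% of all windows. The T-box and KLF letters share the run CACACC. *S1pr4*, without a CpG in its window, was read in all 10 lymphoma and leukaemia libraries, as *Cxcr4* was.

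**Figure D1:**
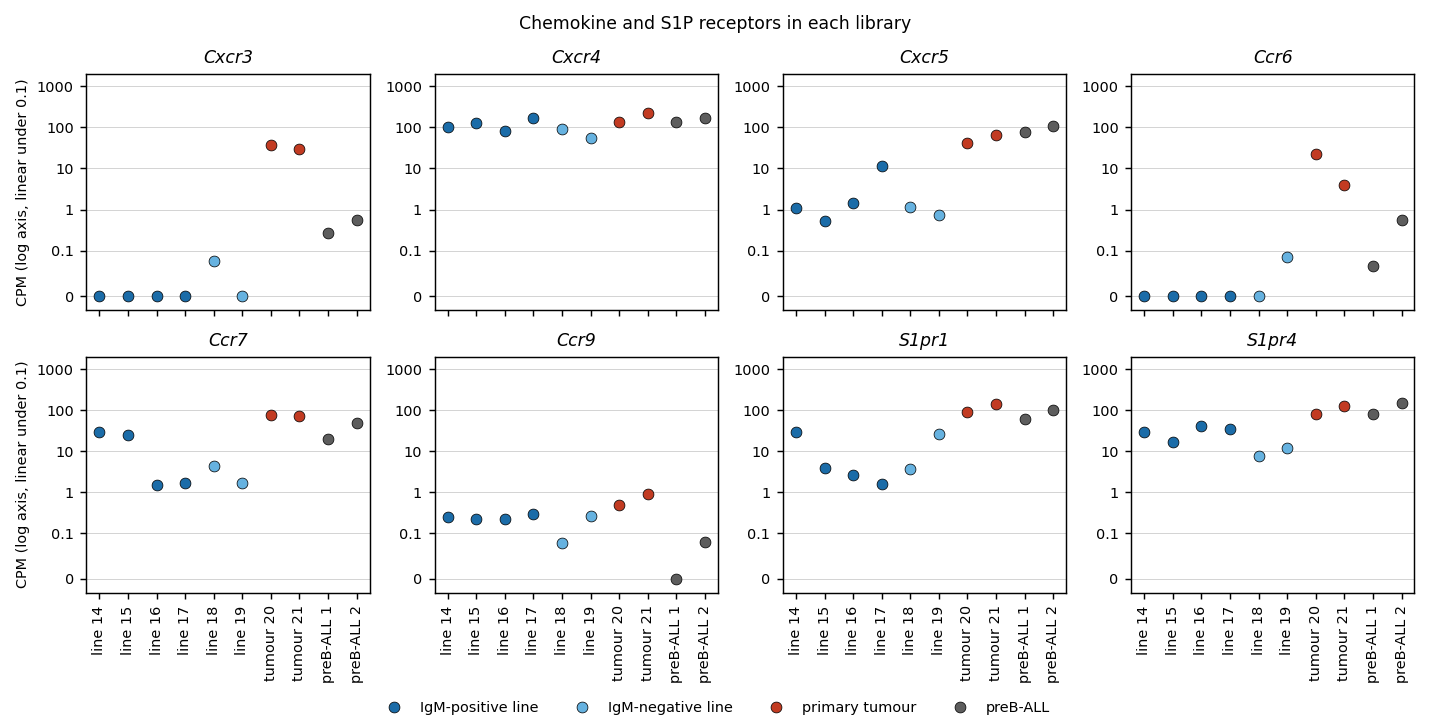
CPM of the 8 receptor genes in each of the 10 lymphoma and leukaemia libraries, 1 point a library, on a log axis that is linear under 0.1 CPM. *Cxcr3* and *Ccr6* are at or near 0 outside the tumours, *Cxcr4* lies between 54.3 and 229.8 CPM throughout, and *Cxcr5*, *S1pr1* and *S1pr4* are lower in the 6 lines than in tumours and preB-ALL.

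Both tumours read more of every receptor than did lines 14 and 15. The groups did not overlap for 8 of 8 genes, against 57.6% of the 12719 genes fitted, and since the rule used this contrast nothing is read from that count. Of all genes, limma called 0.267% higher and 0.0629% lower. *Cxcr3*, *Ccr6* and *Ccr9* passed the filter on low values only through the tumours.

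In the lines against preB-ALL, 5 of the 8 genes passed the filter and 3 of them (*Cxcr5*, *S1pr1* and *S1pr4*) fell, while none rose. Of all 13961 genes tested, 22.5% were called lower and 43.4% were called in either direction (limma, Benjamini-Hochberg adjusted p under 0.05). The groups did not overlap for the same 3 genes, as for 53.0% of all genes. The 5 genes had a median log2 fold change of -2.24, against -0.07 over all genes. The calls of *S1pr1* and *S1pr4* depended on both preB-ALL libraries, as given below. In the tumours against preB-ALL, 7 of the 8 genes were fitted. *Cxcr3* was chosen by its tumour values and *Ccr6* passed the filter only through the tumours, so both are left out of the count. Of the other 5, limma called 0, with 1 at an unadjusted p under 0.05, where 23.8% of 13563 genes were called, 8.9% higher and 14.9% lower. There, edgeR called 0, and DESeq2 and voom each called 1, *Ccr7*. Over all genes these tools called 22.1%, 27.8% and 23.1%. The groups did not overlap for *Ccr7* and *S1pr1* on the scaled values, and for 64.8% of all genes. Between IgM-negative and IgM-positive lines, limma called 0 of 5 genes, against 0.597% of 12386 genes (0.0484% higher), with 1 gene at an unadjusted p under 0.05. For the IgM groups edgeR and voom called 0, and DESeq2 called 1, against 6.05% of all genes. The comparisons against preB-ALL share those 2 libraries, and both tumour comparisons share the tumours.

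**Figure D2:**
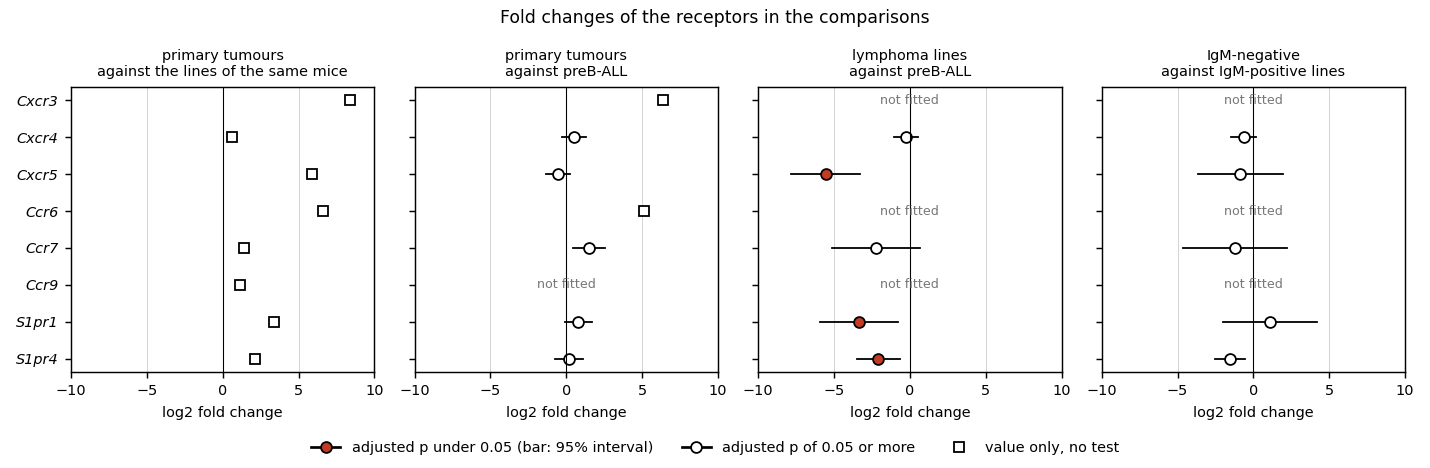
Log2 fold change (horizontal axis) of each receptor gene in the 4 comparisons. Bars are 95% intervals of limma, filled points passed an adjusted p of 0.05, and squares are values without a test (*Cxcr3* and *Ccr6* against preB-ALL, and every gene against lines 14 and 15). Every square for tumours against lines 14 and 15 lies above 0, and the filled points for lines against preB-ALL lie at -5.55 (*Cxcr5*), -3.35 (*S1pr1*) and -2.08 (*S1pr4*).

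*Cxcr3* (Entrez 12766, chrX:101731535-101734147, GRCm38.p6, minus strand) encodes the receptor for CXCL9 and CXCL10, the interferon-induced chemokines. Tumour 20 held 38.4 CPM (876 reads) and tumour 21 held 30.2 CPM (606 reads). Lines 14, 15, 16, 17 and 19 held 0 reads and line 18 held 2 reads (0.0781 CPM). preB-ALL 1 held 0.267 CPM and preB-ALL 2 held 0.561 CPM, from 4 and 7 reads. The tumours stood apart from all other libraries of the series, the MEFs included, which reached at most 0.0431 CPM. With 3 reads per library as the limit that a count of 0 allows (0.122 CPM in line 14), *Cxcr3* was at least 248-fold higher in the tumours than in lines 14 and 15. This limit and the others below cover counting error only. T and NK cells also carry CXCR3. Of their markers, *Cd3e*, a T cell receptor subunit, was at 0.549 and 0.613 CPM in the tumours, and *Ncr1*, an NK cell receptor, at 0.131 and 0.199 CPM. *Prf1*, the perforin gene of NK and cytotoxic T cells, was at 4.82 and 12.2 CPM in the tumours and at most 1.18 CPM in the lines. It made up most of the NK sum, and other NK markers did not follow it. *Klrb1c* was lower in the tumours (at most 0.0997 CPM) than in the lines (0.122 to 0.910 CPM). *Eomes* reached 0.0438 CPM in the tumours and 0.122 CPM in the lines. *Gzma* and *Klrd1* were at most 0.0499 and 0.150 CPM in the tumours and at 0 in the lines. The part of such cells in the *Cxcr3* level was not tested. *Cxcl9* and *Cxcl10* had at most 3 reads in any of the 10 libraries.

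*Tbx21* encodes T-bet, a transcription factor known to act upstream of *Cxcr3* in activated lymphocytes. It was at 69.9 and 75 CPM in tumours 20 and 21, at 5.47 and 2.14 CPM in lines 14 and 15, and at 0 to 0.0498 CPM in the other 4 lines. Both preB-ALL libraries held 0 reads. The tumours were at least 291-fold higher than preB-ALL, given without a test because the gene passed that filter only through the tumours. Against lines 14 and 15 the log2 difference was 4.31 ± 0.53 (SE), with an adjusted p of 0.0639. With the mouse numbers of the titles as a block, the adjusted p was 0.0066 in limma. With those of the descriptions as a block, 0 of 12719 genes were called. Lines 14 and 15 lay above the other 4 lines and 12.8 to 35.1 times under the tumours.

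*Ccr6* (Entrez 12458, chr17:8236041-8258519, plus strand) encodes the receptor for CCL20. It was at 22.7 CPM in tumour 20 and at 4.04 CPM in tumour 21, the widest ratio between the 2 tumours among the receptors. Lines 14 to 18 held 0 reads and line 19 held 2 reads. The preB-ALL libraries held 1 and 7 reads (0.0668 and 0.561 CPM). *Ccr6* was at least 33.2-fold higher in the tumours than in lines 14 and 15. Against preB-ALL its log2 difference was 5.09, given without a test because the gene passed the filter only through the tumours. *Ccl20* held 1 read in line 18 and 0 in the other 9 libraries.

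*Cxcr5* (Entrez 12145, chr9:44511787-44526444, minus strand) encodes the CXCL13 receptor that brings B cells into follicles. The tumours were at 41.7 and 65.6 CPM and preB-ALL at 77.2 and 109 CPM. Lines 14, 15, 16, 18 and 19 were at 1.09, 0.525, 1.44, 1.13 and 0.733 CPM, and line 17 at 11.2 CPM. All 6 lines lay under every tumour and preB-ALL library, and line 17 stood apart from the other 5. Against preB-ALL the lines fell by 5.55 on the log2 scale (SE 0.99, adjusted p = 0.0026 in limma), and the call held without either preB-ALL library (adjusted p = 0.0240 and 0.0436). DESeq2 gave no adjusted p for this gene. Between tumours and preB-ALL the log2 difference was -0.54, with a 95% interval from -1.35 to 0.26 (adjusted p = 0.289). Each tumour held 38.1 to 125 times the CPM of line 14 or 15, over the 4 pairs of libraries. An exon of *Cxcr5* overlaps one of *Bcl9l*, and the use of strand in counting is not given in the sources used here. MEFs read *Cxcr5* at 1.52 to 3.43 CPM, above 5 of the 6 lines.

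*Ccr7* (Entrez 12775, chr11:99144199-99155077, minus strand) encodes the receptor for CCL19 and CCL21, which leads cells into lymph nodes. The tumours were at 75.2 and 69.9 CPM, the highest levels of the gene. Lines 14 and 15 were at 29.8 and 24.1 CPM, and lines 16, 17, 18 and 19 at 1.52, 1.69, 4.45 and 1.64 CPM. preB-ALL 1 was at 19.6 and preB-ALL 2 at 47.2 CPM. The lines thus spanned 19.7-fold, and lines 14 and 15 lay within the range of preB-ALL. Against preB-ALL the log2 difference of the 6 lines was -2.24, with an interval from -5.12 to 0.64 (adjusted p = 0.182). The tumours lay above preB-ALL by 1.52 ± 0.43 (SE) on the log2 scale, just short of the threshold in limma (adjusted p = 0.0508), and DESeq2 and voom called it (adjusted p = 0.0170 and 0.0425). Each tumour held 2.34 to 3.12 times the CPM of line 14 or 15. *Ccl21a* held no reads in these 10 libraries, and *Ccl19* held 2 reads in tumour 20 alone.

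*Cxcr4* (Entrez 12767, chr1:128588199-128592299, minus strand) was the most even of the receptors. Lines 14 to 19 were at 99.8, 125, 83.7, 169, 93.2 and 54.3 CPM. The tumours were at 139 and 229.8 CPM and preB-ALL at 139 and 169 CPM. The 3 classes overlapped. Lines and preB-ALL differed by -0.28 on the log2 scale, with an interval from -1.07 to 0.51 (adjusted p = 0.540). Tumours and preB-ALL differed by 0.49, with an interval from -0.29 to 1.27 (adjusted p = 0.320), and IgM-negative and IgM-positive lines by -0.64, with an interval from -1.45 to 0.17 (adjusted p = 0.530). Each tumour held 1.11 to 2.30 times the CPM of line 14 or 15, the smallest ratios among the receptors.

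CXCL12, the ligand of CXCR4, was read at 1123 and 191 CPM in preB-ALL 1 and 2 and at no more than 0.375 CPM in the lines and tumours. Against preB-ALL, *Cxcl12* was lower by 10.61 on the log2 scale in the lines and by 10.57 in the tumours. Both are given without a test because the gene passed the filter only through preB-ALL. MEFs, which make *Cxcl12*, reached a median of 467 CPM. The summed fibroblast markers were also high in preB-ALL, with *Col1a1* at 456 to 855 CPM there and at most 2.47 CPM elsewhere among the 10 libraries. *Dcn* at 0 and *Lum* at no more than 0.0668 CPM in preB-ALL did not follow. The part of fibroblasts in the *Cxcl12* level was not tested.

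*S1pr1* (Entrez 13609, chr3:115710433-115715055, minus strand) encodes the main egress receptor of lymphocytes. Tumours 20 and 21 held 91.2 and 144 CPM, and preB-ALL 1 and 2 held 60.7 and 103 CPM. The lines split: line 14 held 28.9 CPM and line 19 held 25.6 CPM, while lines 15, 16, 17 and 18 held 3.86, 2.62, 1.54 and 3.59 CPM. The 6 lines lay under all tumours and preB-ALL libraries. Against preB-ALL they fell by 3.35 on the log2 scale (SE 1.13, adjusted p = 0.0416). That call was lost in edgeR (adjusted p = 0.0867) and on leaving out line 15, 16, 17 or 18 or either preB-ALL library (adjusted p between 0.0561 and 0.252). MEFs read *S1pr1* at 9.92 to 24.1 CPM, so the fibroblast markers of preB-ALL stand beside this value too. Tumours and preB-ALL differed by 0.80, with an interval from -0.09 to 1.69 (adjusted p = 0.170). Each tumour held 3.15 to 37.4 times the CPM of line 14 or 15, a range set by the gap between those 2 lines.

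*S1pr4* (Entrez 13611, chr10:81497745-81500137, minus strand) encodes an S1P receptor largely restricted to blood cells. The tumours were at 82.2 and 129 CPM and preB-ALL at 79.1 and 149.8 CPM. IgM-positive lines 14 to 17 were at 29.8, 16.9, 41.4 and 33.9 CPM, and IgM-negative lines 18 and 19 at 7.62 and 11.6 CPM. All 6 lines lay under the other 4 libraries. Against preB-ALL the lines fell by 2.08 on the log2 scale (SE 0.63, adjusted p = 0.0269), a call that was lost without either preB-ALL library (adjusted p = 0.0720 and 0.232). MEFs held at most 0.0860 CPM of *S1pr4*. The IgM-negative lines did not overlap the IgM-positive lines, as for 23.5% of genes in that comparison. Their log2 difference was -1.56 ± 0.41 (SE), which limma did not call (adjusted p = 0.258) and DESeq2 did (adjusted p = 0.00864). Tumours and preB-ALL differed by 0.19, with an interval from -0.76 to 1.14 (adjusted p = 0.769).

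*Ccr9* (Entrez 12769, chr9:123767211-123783457, plus strand) encodes the CCL25 receptor of gut homing. It had 18 reads or fewer in every library, at 0.482 and 0.898 CPM in the tumours, 0.0781 to 0.299 CPM in the lines, and 0 and 0.0802 CPM in preB-ALL. Its exons overlap those of *Slc6a20a* and 2 further annotated genes, so reads may be split between them. *Ccr9* passed the filter on low values only in the fit of tumours against lines 14 and 15. *Ccl25* was at 1.33 to 4.34 CPM in the 10 libraries.

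Levels of different genes were set side by side only per kilobase of exon (CPM per kb, exon lengths from GENCODE). In the tumours the mean order was *Cxcr4* at 102 ± 35.5 (SD, n = 2), *S1pr4* at 44.2 ± 13.8, *S1pr1* at 38.6 ± 12.3, *Ccr7* at 36.7 ± 1.90, *Cxcr3* at 19.8 ± 3.33, *Cxcr5* at 16.1 ± 5.07, *Ccr6* at 5.77 ± 5.70 and *Ccr9* at 0.0672 ± 0.0287 CPM per kb. The values of *S1pr4* and *S1pr1* overlapped, as did those of *S1pr1* and *Ccr7* and those of *Cxcr3* and *Cxcr5*. In the 6 lines *Cxcr4* was again first at 57.6 ± 21.7 CPM per kb, followed by *S1pr4* at 9.87 ± 5.64, with no overlap between the pair. *S1pr4*, *Ccr7* (5.33 ± 6.52) and *S1pr1* (3.62 ± 4.15) overlapped their neighbours, and *Cxcr5* was at 0.807 ± 1.26 CPM per kb. In preB-ALL the order was *Cxcr4* (85.1 ± 11.8), *S1pr4* (48.0 ± 21.0), *Cxcr5* (28.0 ± 6.83), *S1pr1* (26.9 ± 9.87) and *Ccr7* (16.9 ± 9.88), with *Cxcr3*, *Ccr6* and *Ccr9* under 0.4 CPM per kb in both libraries. The preB-ALL values of *Cxcr5* and *S1pr1* overlapped, as did those of *S1pr1* and *Ccr7*.

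**Figure D3:**
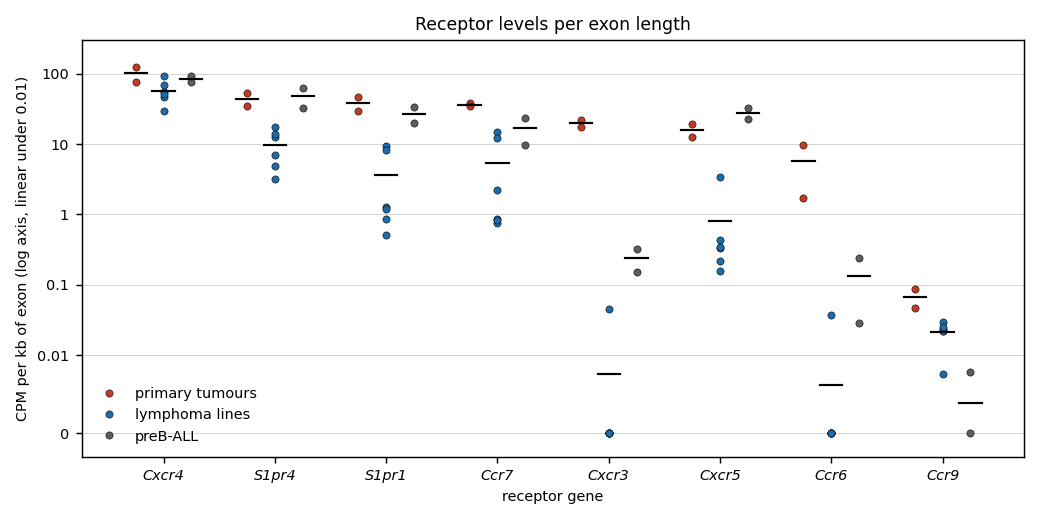
CPM per kilobase of exon (log axis, linear under 0.01) of each receptor gene in the 2 tumours, 6 lines and 2 preB-ALL libraries. Points are libraries and bars are means. *Cxcr4* leads in all 3 classes, and *Cxcr3* is at 19.8 CPM per kb on average in the tumours and under 0.05 in each line.

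Pearson correlations of log2(scaled CPM + 0.1) over the 10 libraries describe how the receptors varied together. The points share sequencing run and disease class, and 2 tumours or 2 preB-ALL libraries can set a value. *Cxcr3* and *Ccr6* went together most closely (r = 0.97), followed by *Cxcr5* and *S1pr4* (r = 0.87), and *Cxcr5* and *Ccr9* had r = -0.02. Among 14378 genes, those most like *Cxcr3* were *Tnfrsf8* (CD30), *Tppp3* and *Hs3st1* (r = 0.99 each), and *Hs3st1* and *Tppp3* were also among the 3 most like *Ccr6*, with *Slc6a21* (r = 0.98 to 0.99). *Ccr7* was most like *Cd38*, *Ly6d* and *Unc13d* (r = 0.97 to 0.98), *Cxcr5* like *Ifi27*, *Tbx3* and *Zfp831* (r = 0.97 to 0.98), and *Cxcr4* like *Nup210l*, *Atp2a3* and *Ptp4a3* (r = 0.90 to 0.92). The genes most like *S1pr4* were *Cep63*, *Phyh* and *Agpat4* (r = 0.97 to 0.98), those most like *S1pr1* were *Mypop*, *2510002D24Rik* and *Nfam1* (r = 0.94 to 0.96), and those most like *Ccr9* were *Snord88c*, *Sars2* and *Arhgap27* (r = 0.95).

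A list of 73 other homing genes gave the surroundings of the receptors. It holds other chemokine receptors, atypical receptors, ligands, S1P handling genes, adhesion molecules, G protein signalling genes and regulators. In the tumours against lines 14 and 15, limma called 1 of the 47 list genes tested, *Gpr183*, against 0.33% of all genes. *Gpr183* passed the filter only through the tumours, so nothing is read from that count. The unadjusted p was under 0.05 for 24 list genes and for 3295 of all 12719 genes. edgeR and voom called none of the list and 0 of all genes. DESeq2 called 19 of the list, against 16.5% of all genes. With the mouse numbers of the titles as a block, 29 of 47 were called, 24 higher and 5 lower, where 28.3% of all genes were called. With the opposite numbers of the descriptions the block called 0. All 6 regulators and partners, and 6 of 11 adhesion molecules, were called higher with the titles' block. In that fit 13.3% of all genes were called higher and 15.0% lower. The list was drawn up with earlier results of these data known, so nothing is read from these counts. The median log2 fold change of the 47 genes was 0.52, against 0.01 over all genes.

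*Gpr183* encodes EBI2, an oxysterol receptor that positions B cells at the follicle edge. It was at 20.9 and 23.2 CPM in the tumours and at 1 to 3 reads in each of the 6 lines. Against lines 14 and 15 its log2 difference was 7.11, given without a test because it passed the filter only through the tumours. In pooled reads that was 944 against 3, a ratio of 377 with a 95% counting interval from 129 to 1830. *Itgb7*, a subunit of the gut homing integrin, was at 78.7 and 286 CPM in the tumours and at no more than 4.91 CPM in lines and preB-ALL. MEFs reached 36.9 CPM of it, with a median of 3.44 CPM. *Grk3*, a kinase that desensitises CXCR4, was at 55.7 and 7.98 CPM in the tumours and at no more than 1.05 CPM in lines and preB-ALL. Its highest MEF level was 22.1 CPM, above tumour 21, but the MEF median was 2.14 CPM, under both tumours. The high tumour for *Grk3* was tumour 20, as for *Ccr6*, and the high tumour for *Itgb7* was tumour 21. *Klf2*, a factor that promotes *S1pr1* in lymphocytes, was at 162 and 308 CPM in the tumours, 6.77 to 55.4 CPM in the lines, and 23.3 and 66.9 CPM in preB-ALL. Its level was highest among the lines in line 14, which also had the most *S1pr1*. The relation of *Klf2* to *S1pr1* was not tested. Against lines 14 and 15, *Itgb7* and *Grk3* passed the filter only through the tumours and are given without a test. For *Klf2* the adjusted p was 0.0895 in limma and 0.0042 with the titles' block. The descriptions' block called 0 of 12719 genes.

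**Figure D4:**
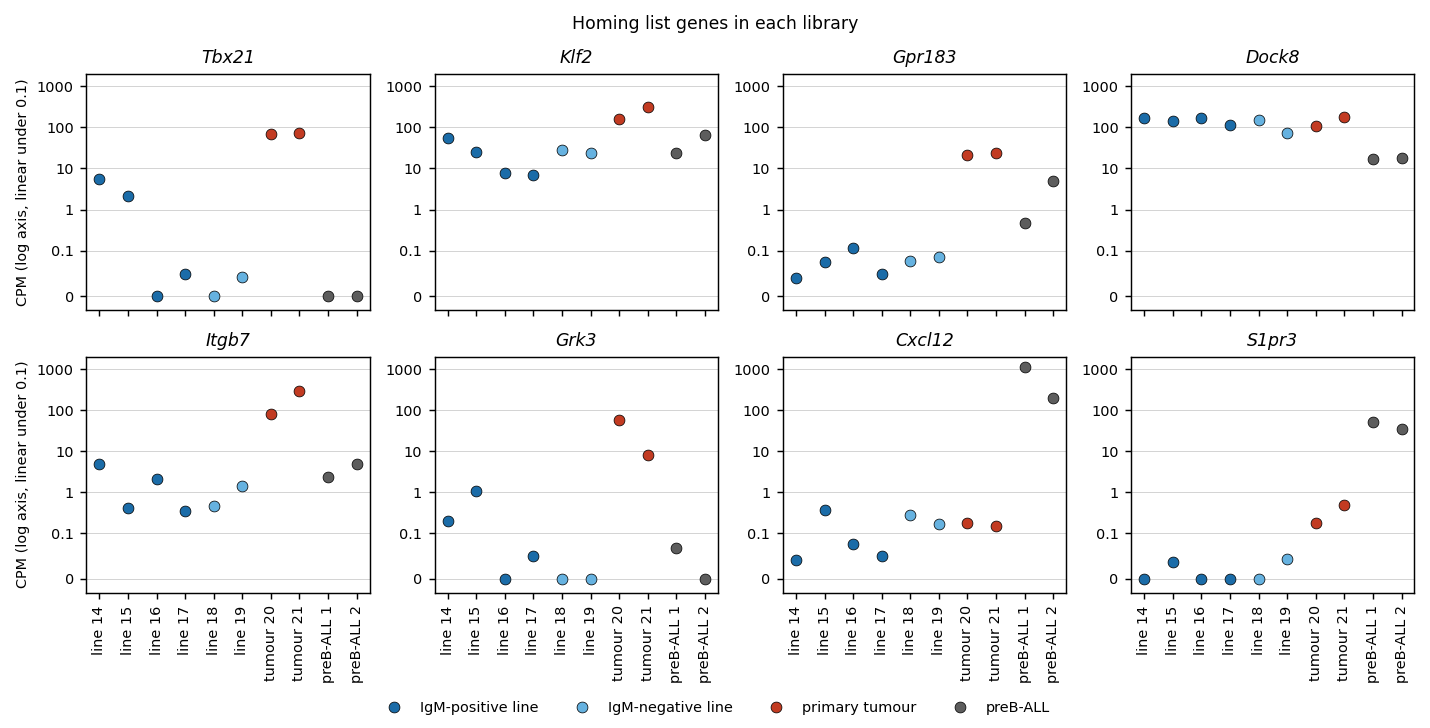
CPM of 8 genes of the homing list in each of the 10 libraries, on a log axis that is linear under 0.1 CPM. *Tbx21*, *Gpr183*, *Itgb7* and *Grk3* are highest in the 2 tumours, and *Cxcl12* and *S1pr3* are read almost only in preB-ALL.

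Against preB-ALL, 19 of 50 list genes were called in the tumours (38.0%), 9 higher (18.0%) and 10 lower (20.0%). Among them, *Tbx21* and *Grk3* passed the filter only through the tumours, and *Cxcl12* and *Ackr3* only through preB-ALL. Nothing is therefore read from this count. Over all genes 23.8% were called, 8.9% higher and 14.9% lower. Those that rose included *Tbx21* and *Grk3*, both given without their p-values. *Grk3* had a log2 difference of 7.52 against 1 read in preB-ALL, with a counting interval of the ratio from 164 to 36226. *Itgb7* rose by 5.69 ± 0.69 (SE) on the log2 scale (adjusted p = 0.0028). *Klf2* (2.77 ± 0.55, adjusted p = 0.0160), *Gpr183* (3.96 ± 1.00, adjusted p = 0.0360) and *Dock8* (3.24 ± 0.32, adjusted p = 0.0016) also rose. The genes that fell most were *Cxcl12*, *S1pr3*, *Ackr3*, the CXCL12 scavenger, and *Rgs18*, a brake on G protein signalling. *Ackr3* held 1 read in each tumour and 319 in preB-ALL, a ratio with a counting interval from 68.4 to 2067. MEFs had a median of 70.8 CPM of *Ackr3*, so it too moved with the summed fibroblast markers of preB-ALL, whose part was not tested. Of the regulators and partners, 4 of 6 rose and 1 fell, and of the S1P handling genes and other S1P receptors none of 9 rose and 4 fell. Those that rose include *Tbx21*, and those that fell include *S1pr3*, which was read almost only in preB-ALL. Nothing is read from these counts either. Leaving out tumour 20 left 0 calls in limma, on the list and among all 14056 genes then tested. Leaving out any other of the 4 libraries left 4 to 9 on the list and 383 to 885 among all genes, of 3222 with every library.

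In the lines against preB-ALL, 23 of 51 list genes were called (45.1%), against 43.4% of all genes. Of the list 6 rose (11.8%) and 17 fell (33.3%), against 20.9% and 22.5% of all genes. Among those that fell, *Cxcl12* and *S1pr3* passed the filter only through preB-ALL. The list was also drawn up with earlier results known, so nothing is read from these counts. *Dock8*, which moves the cytoskeleton of migrating lymphocytes, rose by 3.27 (SE 0.30, adjusted p = 6.28e-05), from 17.4 and 17.8 CPM in preB-ALL to 74.7 to 171 CPM in the lines. *Sgpp1*, an S1P phosphatase, rose by 1.95 (SE 0.31), *Cd44*, the hyaluronan receptor, by 1.22 (SE 0.24), and *Itga4*, a subunit of the integrins that bind VCAM1, by 1.14 (SE 0.28), with adjusted p-values of 0.0015, 0.0042 and 0.0125. The S1P receptor *S1pr3* was lower by 8.27, given without a test because it passed the filter only through preB-ALL. The S1P phosphatase *Plpp3* fell by 8.26 and the integrin ligand *Vcam1* fell by 6.71 (limma adjusted p = 2.13e-05 and 1.16e-05). The 6 lines held 2 reads of *S1pr3* in all against 1183 in preB-ALL, a ratio with a counting interval from 873 to 26119. In MEFs these 3 genes had medians of 106, 183 and 219.6 CPM, and in preB-ALL they moved with the summed fibroblast markers, whose part was not tested. Leaving out preB-ALL 2 left 14 calls. Between IgM-negative and IgM-positive lines, limma called 0 of 41 list genes, with 4 at an unadjusted p under 0.05. There edgeR and voom called 0, and DESeq2 called 2, against 6.05% of all genes.

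MEFs read few of the receptors. *S1pr1* was at a median of 16.7 CPM over the 10 libraries, and *Cxcr5* had the range given above. *Cxcr3*, *Ccr6*, *Ccr7*, *Ccr9* and *S1pr4* were each at 0.242 CPM or lower in all of them. *Cxcr4* was at 0.0857 to 0.364 CPM in 9 of the MEF libraries and at 10.8 CPM in WT MEF 2.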

How the data were processed

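RNA was sequenced from TruSeq libraries, and the authors aligned reads with Rsubread to GRCm38 (mm10), counted them per Entrez gene and deposited CPM, each library's counts divided by its total. Each value was a whole multiple of 1 read within a tolerance of 0.01 (100% of values), so reads were recovered. The preB-ALL columns hold 0 reads for the 15 mitochondrial genes, which take 5.30 to 7.18% of reads in the lines. Symbols were matched for 25242 of 25869 IDs.

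Per comparison, genes were filtered on low values (filterByExpr of edgeR 4.0.16), scaled by TMM and tested as log2(CPM + 0.1) with limma 3.58.1 in R 4.3.3 (Benjamini-Hochberg adjusted p, threshold 0.05), which understates changes of low genes. The code was tested on simulated data. The receptors and gene lists were chosen with earlier results of these data known. Named list genes are up to 4 per direction and comparison that passed the threshold without overlap of the groups, by size, plus ligands, *Klf2* and *Tbx21*; others were named after their values were seen. A list gene that the rule names is not reported here. Alternatives were edgeR, DESeq2 1.42.0 and voom on the reads, pseudocounts of 0.5 and 1, other scaling, filters and samples. As a check of pairing, deviations of tumours and lines 14 and 15 from their group means were correlated over 12719 genes. The value was 0.60 under the mouse numbers of the titles and -0.60 under those of the descriptions. With 2 libraries per group these values are equal and opposite by construction, and both pairs give the same value. The check therefore does not settle the pairing, and a block chosen by it would be tested on the same genes.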

Additional observations from a re-analysis of the deposited data

Results flagged for a closer look

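Of 42 groups of 4 or 6 libraries checked over 24 genes, 5 held a library far from the others by Dixon's test. Chance gives about 1 in 20 for normal values and independent groups. The values were CPM without a log, and the IgM-positive lines lie within all lines, so that rate is only a guide. *Cxcr5* in line 17 was at 11.2 CPM, against 0.525 to 1.44 CPM in the others, and stood apart both among the 4 IgM-positive lines and among all 6 lines. *S1pr1* in line 14 was at 28.9 CPM, against 1.54 to 3.86 CPM in the other IgM-positive lines. *Grk3* in line 15 was at 1.05 CPM, against 0 to 0.203 CPM in the other 5 lines. *Cd44* in 1 sgBcl-2 MEF library was at 641 CPM, against 737 to 738 CPM in the other 3.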

How the results depend on the processing

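Over the single receptors, 432 values from alternatives were compared with 25 results, and 384 kept direction and side of the threshold or moved by less than the spread. Receptors called in lines against preB-ALL (3) numbered 6 without the filter, 1 at a threshold of 0.01, 5 with all classes in 1 fit and 1 to 3 on leaving out 1 library. In tumours against preB-ALL (1 when *Ccr6*, which passed the filter only through the tumours, is counted) there were 2 with DESeq2, voom, no filter or 1 fit, 0 at 0.01 and 0 on leaving out any library. In lines against preB-ALL, every call beyond *Cxcr5*, *S1pr1* and *S1pr4* was of *Cxcr3*, *Ccr6* or *Ccr9*, which failed the filter of the main fit. In tumours against preB-ALL, *Ccr6* was joined by *Ccr7* with DESeq2 and voom, and by *Ccr9* without the filter or in 1 fit. *Ccr9* failed the filter of the main fit there. Nothing is read from the calls of *Cxcr3*, *Ccr6* and *Ccr9*. Over all genes, lines against preB-ALL had 33.8% called without the filter, 27.1% at 0.01 and 43.5% with 1 fit. Tumours against preB-ALL had 27.8% with DESeq2, 23.1% with voom, 15.7% without the filter and 25.2% with 1 fit. Between IgM groups (0), DESeq2 called 1 receptor and 2 list genes, against 6.05% of all genes. List genes called in tumours against lines 14 and 15 (1) numbered 0 with edgeR, voom, RLE factors, no filter or a threshold of 0.01, 19 with DESeq2, 9 with 1 fit, 15 against all 4 IgM-positive lines, and 0 on leaving out any library. Over all genes that comparison had 16.5% called with DESeq2, 4.52% with 1 fit and 10.9% against all 4 IgM-positive lines. With a replicate block, the list genes called numbered 29 by the titles (28.3% of all genes) and 0 by the descriptions. Leaving out 1 library gave 14 to 25 list genes in lines against preB-ALL (23) and 0 to 9 in tumours against preB-ALL (19). A lone library left in a group was assumed to vary like the others. The IgM difference of *Cxcr5* ranged from -1.41 to 0.0044 on leaving out 1 library (0.0044 without line 17), and that of *S1pr1* from -0.27 (without line 19) to 2.48, or -0.41 with the tumours added. The difference of *S1pr4* between tumours and preB-ALL was -0.081 without scaling factors, -0.12 without tumour 21, and between -0.26 (without preB-ALL 1) and 0.61 on leaving out 1 library. None of these reversals passed the threshold, and the cause was not tested. Without scaling factors the median of all genes was -0.42 in lines and -0.26 in tumours against preB-ALL, where TMM gave -0.07 and 0.00. *Cxcr3*, *Ccr6* and *Ccr9* rest on few reads outside the tumours, and their fitted folds depend on the pseudocount.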

Other observations

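The WT MEF 2 library, with *Cxcr4* at 10.8 CPM, also stood apart in macrophage markers. *Adgre1* (F4/80) was at 17.4 CPM there and at most 0.215 CPM in the other 9 MEF libraries, *Csf1r* at 24.4 against at most 2.81 CPM, and *Lyz2* at 104 against at most 4.34 CPM. The relation of these markers to *Cxcr4* was not tested.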
